A study of Arabidopsis thaliana with 6 samples.

Results

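The 9 genes described here make jasmonate or respond to it in Arabidopsis thaliana. They were picked as a pathway set by their loci, with no threshold on a measured value: LOX2 (AT3G45140), AOS (AT5G42650), AOC1 (AT3G25760), AOC2 (AT3G25770) and OPR3 (AT2G06050) encode enzymes of jasmonate synthesis, JAZ1 (AT1G19180) and JAZ10 (AT5G13220) encode repressors of jasmonate signalling, and VSP1 (AT5G24780) and VSP2 (AT5G24770) encode vegetative storage proteins whose transcripts serve as markers of the response. The members were chosen with earlier results of these data known. They are 9 of the 32833 genes listed in the count files. All 9 passed the filter on low counts that left 21268 genes for testing. That held also when the libraries of any 1 genotype were left out of the filter.

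The study asked how transcripts differ between wild type and plants mutated in FIO1, a methyltransferase that places N6-methyladenosine on RNA. Whole seedlings 14 days old, grown in long days without treatment, were sequenced as 2 libraries labelled fio1-2, 2 labelled fio1-1 and 2 of the wild type Col-0. The fio1-1 line carries a chemically induced splice-site mutation. For its RNA-seq experiment the study describes its second line as a CRISPR deletion allele under the name fio1-5, while the libraries are labelled fio1-2, so the exact lesion of the group called fio1-2 here rests on that reading. In the study's text the name fio1-2 belongs to a T-DNA insertion line of other work, and the libraries here are not taken to be that line. Each mutant is 1 line, and seedlings were pooled within a library. The study calls the libraries of a genotype biological replicates and does not say whether they came from separate sowings. The p-values thus concern the spread between these libraries only. For each gene that spread was drawn towards the spread of all tested genes, which weighs more than the gene's own libraries.

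Total counts were between 9717111 and 13055457 per library, and between 24123 and 24792 genes had at least 1 count. FIO1 itself was at 6.97 and 8.65 CPM in fio1-2 (counts per 1000000 counts of the scaled library), 8.24 and 8.54 CPM in fio1-1 and 11.1 and 8.94 CPM in Col-0. It passed no test (log2 fold change -0.34 and adjusted p = 0.146 in fio1-2, -0.24 and 0.346 in fio1-1, limma-voom), and a count over the whole gene cannot show a splice-site change or a short deletion. One feature of the fio1-2 libraries stands apart from the rest: the summed level of 9 seed storage and oil body markers was 8700 and 9002 CPM in fio1-2, 41.6 and 39.4 CPM in fio1-1 and 0.920 and 0.673 CPM in Col-0, where 5 of the 9 were at 0. The sum of 8 root markers was 2339 and 2281 CPM in fio1-2, 1760 and 1800 CPM in fio1-1 and 1698 and 1677 CPM in Col-0. PYK10 alone makes up most of that sum (2218 and 2164 CPM in fio1-2, 1607 and 1584 CPM in Col-0). Of the 8 markers 4 rose in fio1-2 and none fell at an adjusted p under 0.05 (limma-voom), where 16.4% of all tested genes rose and 16.1% fell. SCR (log2 fold change -0.03) and SHR (-0.13) were among the markers that did not pass. The sum of 4 leaf markers was 15087 and 15157 CPM in fio1-2, 19973 and 19086 CPM in fio1-1 and 17639 and 17344 CPM in Col-0, and none of these 4 was at 0 in any library. RBCS1A makes up most of that sum. In fio1-2 it fell with GAPA1 and CA1, while LHCB2.1 was 3.52-fold higher in fio1-2 and 2.77-fold higher in fio1-1. The sum of 9 flower markers was 19.4 and 20.1 CPM in fio1-2, 10.5 and 9.24 CPM in fio1-1 and 9.40 and 9.14 CPM in Col-0, with between 1 and 3 of them at 0. SEP3 makes up most of that sum (means of 17.0 CPM in fio1-2, 7.79 CPM in fio1-1 and 7.23 CPM in Col-0), so the sum mainly shows this gene. It was the 1 flower marker that could be tested and was 2.34-fold higher in fio1-2 (adjusted p = 9.01e-09, limma-voom). These levels moved with the genotypes, and their part in the jasmonate results was not tested. In whole seedlings fewer cells of a type and less RNA per cell cannot be told apart.

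Jasmonate is made from linolenic acid of chloroplast membranes. A lipoxygenase such as LOX2 adds oxygen, allene oxide synthase (AOS) and allene oxide cyclase (AOC) turn the product into the ring compound OPDA, and OPR3 reduces OPDA in the peroxisome before the side chain is shortened. Conjugated to isoleucine, the hormone brings JAZ repressors to the F-box protein COI1 for degradation, which frees MYC2 and related transcription factors, and their targets include VSP genes, JAZ genes and the synthesis genes themselves.

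The genes lie on 4 chromosomes of the TAIR10.1 assembly, whose nuclear chromosomes have the same lengths as the TAIR10 build used for counting. LOX2 lies on chromosome 3 from 16525245 to 16529352 (plus strand, 7 exons in its longest transcript), and AOS on chromosome 5 from 17097564 to 17099595 (minus strand, 1 exon). AOC1 (chromosome 3, 9403779 to 9405338) and AOC2 (9406669 to 9408071) are neighbours in the same orientation, with 1330 bases between them. OPR3 lies on chromosome 2 from 2359114 to 2362375 (minus strand, 5 exons), JAZ1 on chromosome 1 from 6621777 to 6623668 (plus strand, 3 exons) and JAZ10 on chromosome 5 from 4218786 to 4221077 (plus strand, 3 exons). VSP2 (chromosome 5, 8500468 to 8502224) and VSP1 (8507590 to 8509201) share the minus strand, with 5365 bases between them.

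The paired copies are alike in sequence, which bears on how well their counts can be told apart. The longest transcripts of VSP1 and VSP2 were identical over 86.8% of the shorter one, and those of AOC1 and AOC2 over 82.0%. No stretch of 150 bases in the longest transcript of any of the 9 genes was shared with another gene. JAZ10 overlaps AT5G02045 on the opposite strand, which had 2 counts in 1 fio1-1 library and 0 in the other 5. The strand setting used for counting is not given in the sources used here.

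Upstream of the annotated start, the VSP genes share a stretch of 55 bases that differs at 5 positions, and the AOC genes share one of 28 bases that differs at 2. These are the highest-scoring stretches without gaps between the 500-base windows before the starts of each pair. The score rose with each matching base and fell by more with each differing base. They are shown because the 2 VSP genes and the 2 AOC genes are the closest copies in the set, and because their responses are set side by side further on. Each is written 5′ to 3′ on the strand of the gene, with capitals at the bases that differ between the copies. The VSP1 stretch (chr5:8509380-8509434) begins 233 bases before the start and the VSP2 stretch (chr5:8502324-8502378) 154 bases before it, and the AOC1 stretch (chr3:9403653-9403680) begins 126 and the AOC2 stretch (chr3:9406641-9406668) 28 bases before the start.
VSP1: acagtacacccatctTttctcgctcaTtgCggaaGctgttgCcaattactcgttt
VSP2: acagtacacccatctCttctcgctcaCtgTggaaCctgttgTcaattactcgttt
AOC1: ttttCtttCtgtagtttagggaccggcc
AOC2: ttttAtttTtgtagtttagggaccggcc

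The same 500-base windows were searched on both strands for the G-box CACGTG, a core that MYC2 binds, for the related CACATG, and for the GCC box AGCCGCC, a core bound by ethylene response factors. The G-box was in 1 of the 9 windows, that of AOS, against 9.35% of the windows of 27443 protein-coding genes. CACATG was in 3, those of LOX2, JAZ1 and JAZ10, against 21.1% of all windows. AGCCGCC was in 0 of the 9 and in 1.34% of all. The 4 matches follow with 12 bases on each side and the motif in capitals, which reads as CATGTG where CACATG lies on the other strand. The AOS match (chr5:17099584-17099613) begins 6 bases before the annotated start, so its right flank runs into the gene, and the LOX2 match (chr3:16525136-16525165) begins 97, the JAZ10 match (chr5:4218709-4218738) 65 and the JAZ1 match (chr1:6621348-6621377) 417 bases before it. A match is a run of letters and not a measured binding site.
AOS: aaagagtcaaagCACGTGgctaaatgaatc
LOX2: cctcctatgcatCACATGcaatatcgggta
JAZ10: taagaatttaaaCATGTGttttgaatcatt
JAZ1: tgtgacggtcgaCATGTGggttgactttga

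Per transcript length, LOX2 was the most abundant of the 9 and the VSP genes and JAZ10 the least. In TPM, which scale counts by exon length and by library, the means over all 6 libraries ran from 84.3 TPM for LOX2, above 90.5% of the tested genes with a length, to 1.81 TPM for JAZ10, above 8.47% of them. AOC2 was at 44.2 TPM, AOS at 29.8 TPM, OPR3 at 19.4 TPM, JAZ1 at 18.0 TPM, AOC1 at 12.4 TPM, VSP2 at 6.68 TPM and VSP1 at 2.97 TPM. LOX2, AOC2 and AOS held ranks 1 to 3 in every genotype, and the lower end of the order differed. VSP2 was at 12.3 TPM in fio1-2 and 6.36 TPM in fio1-1, rank 7 in both, and at 1.34 TPM in Col-0, rank 8, where it and VSP1 (1.27 TPM) overlapped between libraries. In fio1-2 the libraries of AOC1 and VSP2 overlapped, in fio1-1 those of VSP1 and JAZ10, and in Col-0 those of AOS and JAZ1, so the order of these neighbours is not set beyond their spread.

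In fio1-2, transcripts of both storage protein genes and of the first 2 synthesis enzymes were more abundant than in Col-0, and AOC2 was less abundant. VSP2 was 9.60-fold and VSP1 5.10-fold higher, and LOX2 and AOS were 1.39-fold and 1.57-fold higher. AOC1, OPR3, JAZ1 and JAZ10 did not pass the test. In all, 4 of the 9 rose and 1 fell at an adjusted p under 0.05 (limma-voom, Benjamini-Hochberg over all tested genes), where 16.4% of all tested genes rose and 16.1% fell. Of these, VSP1 and VSP2 also differed by at least 2-fold, the call used here, against 5.93% of all tested genes called. The median log2 fold change of the 9 was 0.23, beside 0.00273 for all tested genes.

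In fio1-1, VSP2 was again higher, but LOX2, AOC1, AOC2 and JAZ1 were lower than in Col-0. VSP2 was 5.07-fold higher, AOC1 2.20-fold lower, AOC2 1.57-fold lower, JAZ1 1.55-fold lower and LOX2 1.23-fold lower. AOS, OPR3, JAZ10 and VSP1 did not pass the test. Thus 1 of the 9 rose and 4 fell, where 14.2% of all tested genes rose and 14.3% fell. AOC1 and VSP2 were called, against 4.91% of all tested genes. The median log2 fold change of the 9 was -0.30, beside 0.00749 for all tested genes. Both mutants were compared with the same 2 Col-0 libraries, so the 2 sets of values are not independent.

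**Figure D1:**
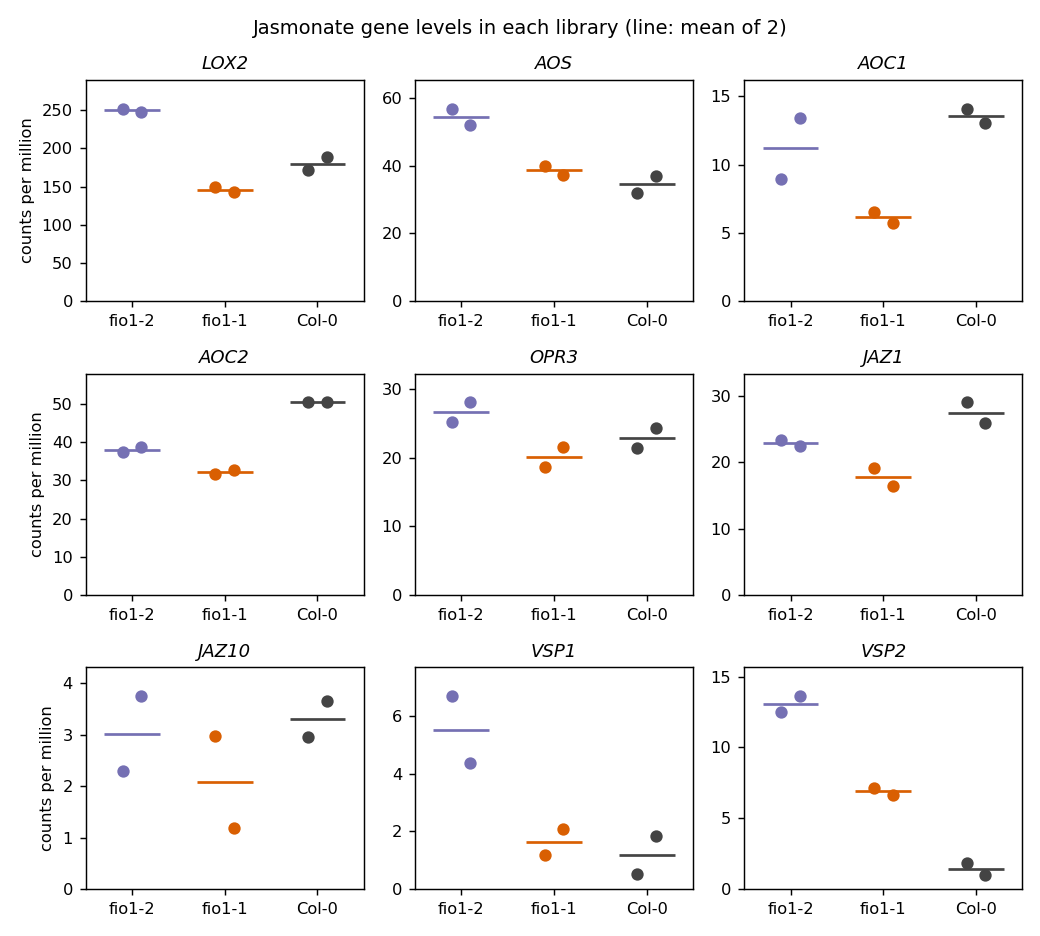
Level of each of the 9 genes in CPM (vertical axis, from 0 in every panel) in the 2 libraries of fio1-2, fio1-1 and Col-0 (points), with the mean of the 2 as a line. VSP2 is lowest in both Col-0 libraries (1.84 and 0.962 CPM) and highest in both fio1-2 libraries (12.5 and 13.6 CPM), while AOC2 is highest in Col-0.

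LOX2, the chloroplast lipoxygenase at the head of the pathway, was at 252 and 247 CPM in fio1-2, 149 and 143 CPM in fio1-1 and 171 and 188 CPM in Col-0. The 3 genotypes did not overlap, with fio1-2 above Col-0 and fio1-1 below it. The log2 fold change was 0.47 ± 0.05 (SE, adjusted p = 2.52e-13) in fio1-2 and -0.30 ± 0.05 (adjusted p = 4.44e-06) in fio1-1, both from limma-voom.

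AOS, the cytochrome P450 that commits the lipoxygenase product to jasmonate, was at 56.7 and 52.0 CPM in fio1-2, 39.9 and 37.3 CPM in fio1-1 and 32.0 and 37.0 CPM in Col-0. Both fio1-2 libraries lay above the other 4, and the higher Col-0 library lay just below the lower fio1-1 library. The log2 fold change was 0.65 ± 0.09 in fio1-2 (limma-voom adjusted p = 4.99e-09). In fio1-1 it was 0.16, with a 95% interval from -0.03 to 0.35 (adjusted p = 0.208).

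The next step is shared by 4 allene oxide cyclase genes. AOC1 was at 8.98 and 13.4 CPM in fio1-2, 6.55 and 5.76 CPM in fio1-1 and 14.1 and 13.1 CPM in Col-0. Both fio1-1 libraries were below the other 4, and 1 fio1-2 library lay within the Col-0 range while the other lay below it. The log2 fold change was -1.14 ± 0.20 in fio1-1 (adjusted p = 3.66e-06, limma-voom) and -0.27 in fio1-2 (adjusted p = 0.183). Without fio1-2 replicate 2 the value in fio1-2 was -0.59 and passed the adjusted p threshold (0.0256).

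AOC2, the more abundant neighbour of AOC1, was at 37.4 and 38.7 CPM in fio1-2, 31.7 and 32.7 CPM in fio1-1 and 50.4 and 50.4 CPM in Col-0. The 3 genotypes did not overlap and Col-0 was highest. AOC2 fell in both mutants, by 0.40 on the log2 scale in fio1-2 (SE 0.0820, adjusted p = 5.69e-05, limma-voom) and by 0.65 in fio1-1 (SE 0.0890, adjusted p = 1.27e-08).

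AOC3 and AOC4 lay the other way in fio1-2, while neither passed the test in fio1-1. AOC4 rose in fio1-2 (log2 fold change 0.51, adjusted p = 0.00046, limma-voom) and was at 0.32 in fio1-1, which did not pass. The value of AOC3 in fio1-1 was 0.33 (adjusted p = 0.497, limma-voom), and its libraries there overlapped those of Col-0. AOC3 was called in fio1-2 (1.08, adjusted p = 0.00275), a call lost without Col-0 replicate 1 (0.85, adjusted p = 0.0807). Per length, AOC1 and AOC2 together with AOC3 and AOC4 summed to 87.4 and 88.6 TPM in fio1-2, 68.6 and 67.9 TPM in fio1-1 and 94.1 and 95.4 TPM in Col-0. Within that sum AOC2 made up 47.3% and 47.9% in fio1-2, 49.0% and 52.3% in fio1-1 and 59.7% and 59.0% in Col-0. AOC4 made up 35.0% and 28.7% in fio1-2, 36.9% and 32.4% in fio1-1 and 20.0% and 21.5% in Col-0. The make-up of the family thus differed between each mutant and Col-0 in both libraries, with a smaller share of AOC2 and a larger share of AOC4.

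**Figure D2:**
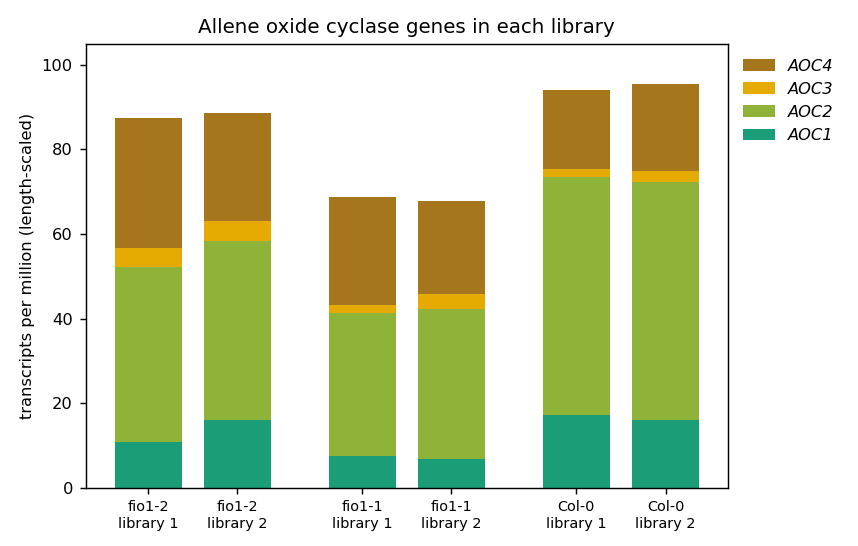
Stacked bars of the 4 allene oxide cyclase genes in each library, in TPM (vertical axis, from 0), with the 2 libraries of fio1-2, fio1-1 and Col-0 from left to right. AOC2 is the largest block in every library, and the whole bar is shortest in fio1-1 (68.6 and 67.9) and tallest in Col-0 (94.1 and 95.4).

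OPR3, the reductase of the peroxisomal step, was at 25.1 and 28.0 CPM in fio1-2, 18.6 and 21.5 CPM in fio1-1 and 21.4 and 24.2 CPM in Col-0. The fio1-1 and Col-0 libraries overlapped, and both fio1-2 libraries lay above the Col-0 ones. The log2 fold change was 0.23 in fio1-2, with a 95% interval from 0.01 to 0.45 (limma-voom adjusted p = 0.109), and -0.19 in fio1-1, from -0.43 to 0.05 (adjusted p = 0.26).

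Of the repressors, JAZ1 was at 23.3 and 22.5 CPM in fio1-2, 19.2 and 16.4 CPM in fio1-1 and 29.0 and 26.0 CPM in Col-0. The 3 genotypes did not overlap, and Col-0 was highest. JAZ1 fell in fio1-1 (log2 fold change -0.63 ± 0.12 SE, limma-voom adjusted p = 2.19e-05), while its value of -0.26 in fio1-2 just missed the threshold (adjusted p = 0.0534) and passed it in 2 of 12 alternative fits (lowest adjusted p = 0.0489).

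JAZ10, a repressor gene strongly induced by wounding, was the least abundant of the 9. It had 24 and 49 counts in fio1-2, 30 and 12 in fio1-1 and 29 and 38 in Col-0. All 3 genotypes overlapped. Its log2 fold change was -0.13 in fio1-2 (95% interval -0.76 to 0.50, adjusted p = 0.795, limma-voom) and -0.79 in fio1-1 (-1.54 to -0.04, adjusted p = 0.107). At these counts the intervals span more than a 2-fold range in either mutant.

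VSP2, a vegetative storage protein of the acid phosphatase family, showed the widest range of the 9. It was at 12.5 and 13.6 CPM in fio1-2 (131 and 178 counts), 7.15 and 6.65 CPM in fio1-1 (72 and 67 counts) and 1.84 and 0.962 CPM in Col-0 (18 and 10 counts). The 3 genotypes did not overlap. The log2 fold change was 3.26 ± 0.35 in fio1-2 (SE, adjusted p = 2.74e-12, limma-voom) and 2.34 ± 0.36 in fio1-1 (adjusted p = 2.91e-07). Both calls held in all 12 alternative fits, where the value ran from 2.80 to 3.70 in fio1-2 and from 1.88 to 2.78 in fio1-1.

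VSP1 was at 6.69 and 4.36 CPM in fio1-2 (70 and 57 counts), 1.19 and 2.09 CPM in fio1-1 (12 and 21 counts) and 0.511 and 1.83 CPM in Col-0 (5 and 19 counts). The fio1-1 and Col-0 libraries overlapped, and both fio1-2 libraries lay above the other 4. The log2 fold change was 2.35 ± 0.43 in fio1-2 (SE, adjusted p = 9.7e-06, limma-voom) and 0.64 in fio1-1 (95% interval -0.39 to 1.67, adjusted p = 0.383). The value in fio1-1 turned to -0.21 without Col-0 replicate 1, the library with 5 counts.

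The VSP genes together were 4.52% and 4.24% of the summed CPM of the 9 genes in fio1-2, 3.02% and 3.27% in fio1-1 and 0.727% and 0.807% in Col-0. The sum itself was 425 and 424 CPM in fio1-2, 276 and 267 CPM in fio1-1 and 323 and 346 CPM in Col-0. LOX2, the most abundant, sets most of that order, which puts fio1-2 above and fio1-1 below Col-0. Beside this, the seed marker sum followed the order of VSP2 over the genotypes, being highest in fio1-2, lower in fio1-1 and lowest in Col-0, and its part in the VSP2 result was not tested.

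**Figure D3:**
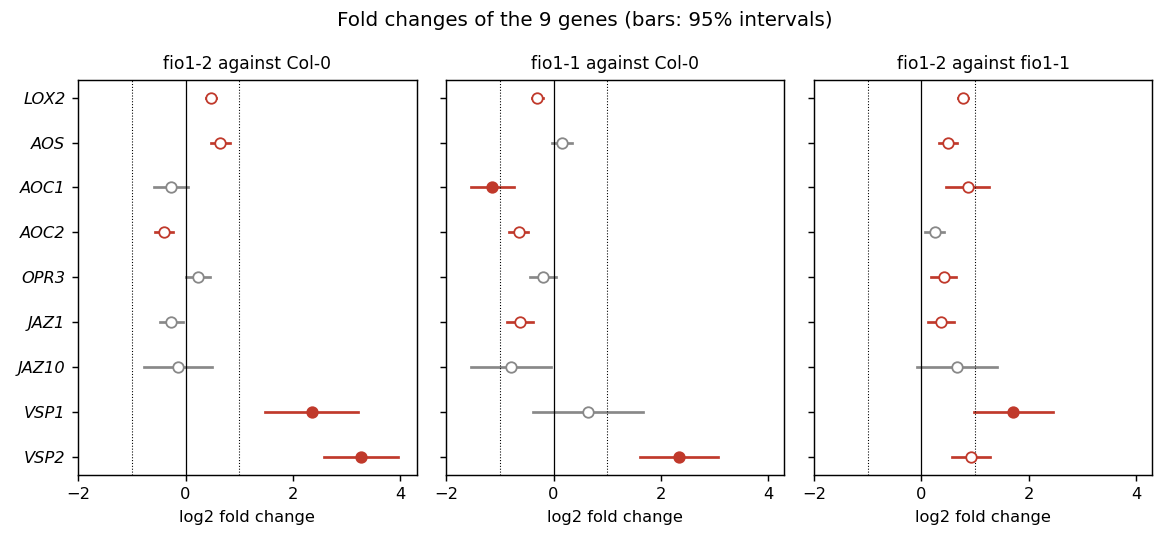
Log2 fold changes (horizontal axis) of the 9 genes in fio1-2 against Col-0, fio1-1 against Col-0 and fio1-2 against fio1-1, with 95% intervals from limma-voom. Red marks an adjusted p under 0.05, filled points are also at least 2-fold (dotted lines at -1 and 1). All 9 points lie above 0 in the right panel, from 0.24 for AOC2 to 1.71 for VSP1.

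Set directly against each other, the mutants differed in most of the 9 genes. All 9 genes had a higher mean in fio1-2 than in fio1-1, and 7 of them rose at an adjusted p under 0.05, where 9.31% of all tested genes rose and 8.76% fell. Only VSP1 was called, against 2.68% of all tested genes. The median log2 fold change of the 9 was 0.66, beside -0.00186 for all tested genes, of which 10547 of 21268 were above 0. Genes of one pathway are not independent of each other, so the count of 9 is a description.

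The largest of these differences was that of VSP1 (log2 fold change 1.71 ± 0.37 SE, 3.27-fold, limma-voom adjusted p = 0.000247), followed by VSP2 (0.92 ± 0.18, adjusted p = 4.84e-05) and AOC1 (0.86 ± 0.20, adjusted p = 0.000688). LOX2 differed by 0.77 (adjusted p = 2.2e-21), AOS by 0.49 (adjusted p = 5.23e-06), OPR3 by 0.41 (adjusted p = 0.00527) and JAZ1 by 0.37 (adjusted p = 0.023). AOC2 (0.24, adjusted p = 0.0516) and JAZ10 (0.66, adjusted p = 0.239) did not pass. LOX2, AOS, VSP1 and VSP2 passed in all 12 alternative fits. The count of 7 fell to 4 without fio1-2 replicate 2, where AOC1 (0.54, adjusted p = 0.121), OPR3 (0.33, adjusted p = 0.12) and JAZ1 (0.39, adjusted p = 0.066) no longer passed. OPR3 also missed the threshold without fio1-1 replicate 1 (0.31, adjusted p = 0.173) and with DESeq2 (adjusted p = 0.106), and JAZ1 without fio1-1 replicate 2 (0.25, adjusted p = 0.309), without fio1-2 replicate 1 (0.34, adjusted p = 0.0964) and with DESeq2 (adjusted p = 0.189). AOC1 became a call without fio1-2 replicate 1 (1.12).

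A wider list of 58 further jasmonate genes was examined by role, of which 47 passed the filter on low counts. In fio1-2, 15 of the 47 rose and 9 fell against Col-0, with 6 called higher. In fio1-1, 6 rose and 12 fell, with 2 called higher and 1 called lower. Between fio1-2 and fio1-1, 15 were higher and 2 lower, with 5 called higher in fio1-2. Of these, CYP94B1 (1.29) was no longer called with DESeq2 (adjusted p = 0.062), without fio1-1 replicate 1 (adjusted p = 0.095) or without fio1-2 replicate 2 (0.97, adjusted p = 0.118). ST2A (1.57) was no longer called with DESeq2 (adjusted p = 0.0683), without either fio1-1 library (adjusted p = 0.141 and 0.0595) or without fio1-2 replicate 1 (adjusted p = 0.0506). Of the 47, 5 passed the low-count filter only with the fio1-2 libraries in it. Among them, NATA1, TAT3 and PDF1.2A were high in fio1-2, and a gene that passes only where it is high has to differ there. AT2G38240 and ANAC019 lay at the edge of the filter, and also dropped out without fio1-1 (AT2G38240) or without Col-0 (ANAC019). They did not pass the test in fio1-2 against Col-0 (0.45 and 0.21, adjusted p = 0.594 and 0.787, limma-voom). Among the other 42, 12 rose and 9 fell in fio1-2 against Col-0 with 3 called higher, while 6 rose and 12 fell in fio1-1. Between the mutants, 12 of the 42 had a higher and 2 a lower level in fio1-2 past the threshold, with 2 called. The median log2 fold change of these 42 against Col-0 was 0.12 for fio1-2 and -0.09 for fio1-1, and that of fio1-2 against fio1-1 was 0.15. As background, 16.4% of all tested genes rose and 16.1% fell in fio1-2 against Col-0, with 5.93% called. In fio1-1 against Col-0, 14.2% rose and 14.3% fell, with 4.91% called. Between the mutants, 9.31% were higher and 8.76% lower in fio1-2, with 2.68% called.

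**Figure D4:**
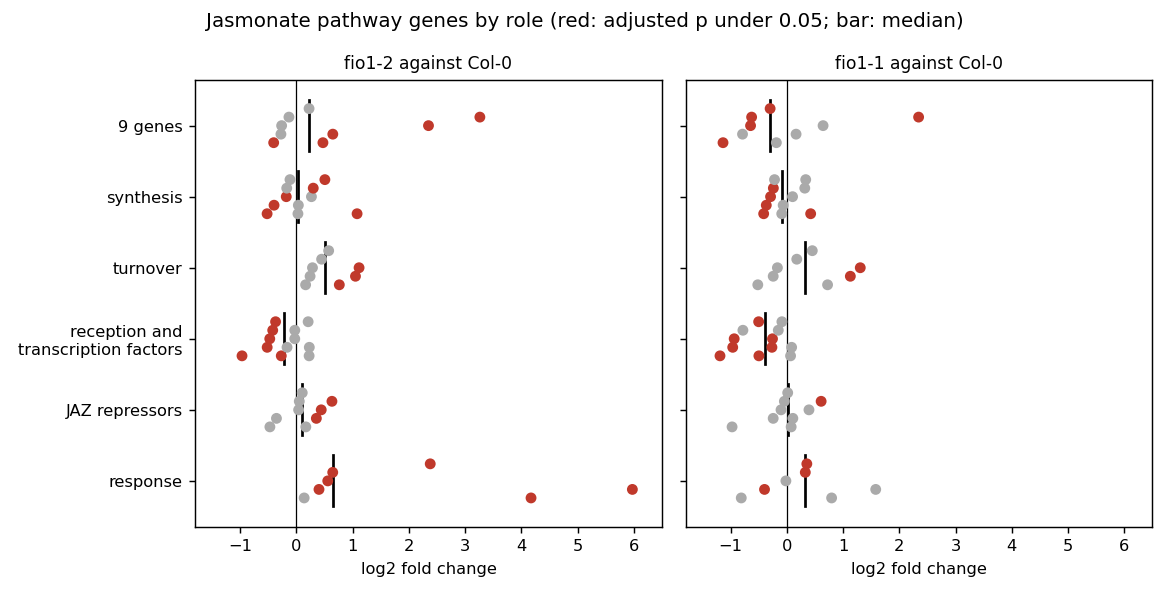
Log2 fold changes against Col-0 (horizontal axis) of the 9 genes and of the 47 other tested jasmonate genes by role, in fio1-2 (left) and fio1-1 (right); red points have an adjusted p under 0.05, and the black bar is the median of the row. The response row reaches furthest to the right in fio1-2. Its 3 outermost points there (PDF1.2A, TAT3 and NATA1) are genes that passed the low-count filter only through fio1-2, so their red colour is no test result. They also enter the median bar of that row, which is at 0.65 with them and would be at 0.48 for the 4 others. The last point is NATA1, whose fitted value rests on counts of 0 in Col-0.

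Of 11 other tested synthesis genes, 3 rose and 3 fell in fio1-2, and 1 rose and 4 fell in fio1-1. The shares of all tested genes were 16.4% and 16.1% in fio1-2, and 14.2% and 14.3% in fio1-1. LOX6, a lipoxygenase of the same class as LOX2, rose in both (0.30 in fio1-2, adjusted p = 0.0297 by limma-voom, and 0.42 in fio1-1, adjusted p = 0.00244). FAD7, a chloroplast desaturase that makes the linolenic acid substrate, was at 182 and 191 CPM in fio1-2, 238 and 231 CPM in fio1-1 and 249 and 242 CPM in Col-0. It fell in fio1-2 (-0.40, adjusted p = 4.51e-11), and its counterpart FAD8 fell in both (-0.52 in fio1-2 and -0.24 in fio1-1). JAR1, which conjugates jasmonate to isoleucine, fell in fio1-1 (-0.41, adjusted p = 4.18e-05) and was at -0.11 in fio1-2. ACX1, an acyl-CoA oxidase of side-chain shortening, fell in both by 0.18 (fio1-2) and 0.29 (fio1-1).

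Among 8 tested genes of jasmonate turnover, 3 rose and none fell in fio1-2, and 2 rose and none fell in fio1-1. Among all tested genes, 16.4% rose and 16.1% fell in fio1-2, and 14.2% rose and 14.3% fell in fio1-1. With only 8 genes in the role, its counts rest on few genes. ILL6, an amidohydrolase that cleaves the isoleucine conjugate, was at 13.4 and 12.4 CPM in fio1-2, 17.5 and 15.6 CPM in fio1-1 and 7.26 and 7.79 CPM in Col-0. Both mutants lay above Col-0 in every library (0.76 in fio1-2, adjusted p = 0.000282 by limma-voom, and 1.13 in fio1-1, adjusted p = 1.5e-07). CYP94C1, which oxidises the conjugate, was called in fio1-1 (1.30, adjusted p = 0.0027), where it was at 4.37 and 4.07 CPM against 1.84 and 1.54 CPM in Col-0. The call was lost without Col-0 replicate 2 (1.17, adjusted p = 0.0653). The related CYP94B1 (1.12) and the sulfotransferase gene ST2A (1.05) were called in fio1-2, but both calls were lost with DESeq2 (adjusted p = 0.0791 for CYP94B1 and 0.236 for ST2A). Without Col-0 replicate 2 and without fio1-2 replicate 1 the ST2A value in fio1-2 was 0.54 and 0.91, and that of CYP94B1 without Col-0 replicate 1 and without fio1-2 replicate 2 was 0.88 and 0.80, with no call in any of these.

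Reception and transcription factor genes were the role with the most members that fell. Of the 12 tested, 6 fell in fio1-2 and 7 in fio1-1, and none rose in either. Among all tested genes, 16.1% fell and 16.4% rose in fio1-2, and 14.3% fell and 14.2% rose in fio1-1. MYC2, the main activator of the wound branch, was at 32.7 and 27.1 CPM in fio1-2, 21.1 and 22.9 CPM in fio1-1 and 38.1 and 46.6 CPM in Col-0. The 3 genotypes did not overlap, and MYC2 fell in both (-0.52 in fio1-2, adjusted p = 1.27e-05 by limma-voom, and -0.94 in fio1-1, adjusted p = 9.55e-11).

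JAM1, a bHLH protein that opposes MYC2, was at 10.3 and 13.2 CPM in fio1-2, 12.1 and 11.6 CPM in fio1-1 and 23.3 and 23.1 CPM in Col-0. It fell in both mutants (-0.97 in fio1-2 and -0.96 in fio1-1), and the 95% interval of their difference ran from -0.31 to 0.31 on the log2 scale. ANAC055, a NAC factor that acts after MYC2, fell in both, called in fio1-1 (-1.19, limma-voom adjusted p = 5.01e-07) and at -0.47 in fio1-2 (adjusted p = 0.0122), where it no longer passed with DESeq2 (adjusted p = 0.17), without Col-0 replicate 1 (-0.31, adjusted p = 0.26) or without fio1-2 replicate 2 (-0.28, adjusted p = 0.277). COI1, the receptor, fell in fio1-1 (-0.50) and was at -0.17 in fio1-2. NINJA, the adaptor between JAZ proteins and the co-repressor TPL, fell in both (-0.42 in fio1-2 and -0.50 in fio1-1), as did TPL (-0.27 in each) and MYC3 (-0.37 in fio1-2 and -0.26 in fio1-1).

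Of the 9 other tested JAZ genes, 3 rose in fio1-2 (JAZ3 at 0.63, JAZ6 at 0.44 and JAZ9 at 0.36) and 1 in fio1-1 (JAZ6 at 0.61, limma-voom adjusted p = 5.82e-07), and none fell. Beside them, 16.4% of all tested genes rose and 16.1% fell in fio1-2, and 14.2% rose and 14.3% fell in fio1-1. JAZ1 was 9.19% and 8.92% of the length-scaled sum of the JAZ genes in fio1-2, 7.94% and 7.01% in fio1-1 and 11.8% and 11.2% in Col-0.

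Response genes included the largest values in fio1-2. Of the 4 that passed the low-count filter without the fio1-2 libraries, 3 rose in fio1-2, and 2 rose and 1 fell in fio1-1, with none called in either. Beside these counts, 16.4% of all tested genes rose in fio1-2, and 14.2% rose and 14.3% fell in fio1-1. The other 3 response genes tested, NATA1, TAT3 and PDF1.2A, passed the filter only through the fio1-2 libraries. For fio1-2 they are therefore given as values of single genes, not as calls or a count. NATA1, an acetyltransferase gene induced by jasmonate, had 37 and 36 counts in fio1-2, 0 and 1 in fio1-1 and 0 in both Col-0 libraries. Against a floor of 3 counts over the 2 Col-0 libraries it was at least 20.9-fold higher in fio1-2. Against the single count in fio1-1 the ratio was 62.5, with an exact 95% counting interval from 10.9 to 2501, which covers counting error only.

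TAT3, a tyrosine aminotransferase gene induced by jasmonate, had 63 and 78 counts in fio1-2, 7 and 13 in fio1-1 and 2 and 4 in Col-0. Its log2 fold change in fio1-2 was 4.17 ± 0.59 (SE, limma-voom), given as a value only because TAT3 passed the low-count filter only through fio1-2. In fio1-1 its value was 1.58 (adjusted p = 0.0774), which passed in 1 of 11 alternative fits, edgeR's quasi-likelihood test (1.70, adjusted p = 0.039). PDF1.2A, a defensin gene of the branch shared with ethylene, was at 3.92 and 4.98 CPM in fio1-2, 0.496 and 0.397 CPM in fio1-1 and 0.409 and 1.54 CPM in Col-0. Its log2 fold change was 2.38 in fio1-2, again a value only for the same reason, and -0.81 in fio1-1. Its reads may be shared with close copies.

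PR4, a hevein-like gene, took opposite sides as LOX2 did. It was at 188 and 202 CPM in fio1-2, 112 and 112 CPM in fio1-1 and 143 and 152 CPM in Col-0. It rose in fio1-2 (0.40, adjusted p = 6.36e-10, limma-voom) and fell in fio1-1 (-0.40, adjusted p = 3.18e-08). JR1 (0.65 in fio1-2 and 0.33 in fio1-1) and CORI3 (0.56 in fio1-2 and 0.35 in fio1-1) rose in both mutants.

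For the 3 genes of the set that were called against Col-0, the tested genes at 5 CPM or more with the most similar levels over the 6 libraries were found by the root mean square difference of centred log2 CPM. For VSP2 these were AT3G02480, annotated as a late embryogenesis abundant family protein (difference 0.18, r = 0.993 over 6 libraries), FTM1, a fatty acyl desaturase gene (0.22), and the lectin gene AT1G52000 (0.25). AT3G02480 was at 57.3 and 61.0 CPM in fio1-2, 32.9 and 35.3 CPM in fio1-1 and 9.71 and 8.37 CPM in Col-0. For VSP1 they were the thalianol synthase gene THAS1 (0.39), AT5G06630 (0.40) and AT5G03350 (0.41), and for AOC1 AT4G16955 (0.09), the tyrosine aminotransferase gene TAT7 (0.12) and RTFL17 (0.13). The differences are in log2 units, smaller meaning more alike, and they are a description over libraries that share 3 genotypes.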

How the data were processed

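RNA of 14-day-old seedlings was sequenced in 6 libraries. The authors trimmed reads with Trim Galore 0.6.3, aligned them to TAIR10 with HISAT2 2.1.0 and counted them per gene with HTSeq 0.9.1, and the deposited values are raw counts. The deposited tables of the authors' comparisons (fold changes, mean levels and p-values from limma) were not used. Groups follow the genotype labels.

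Counts were fitted with limma 3.58.1 (voom, TMM factors and filterByExpr from edgeR 4.0.16, R 4.3.3) over all 6 libraries. This left 21268 genes, with Benjamini-Hochberg adjustment over all of them. Each gene had 3 residual degrees of freedom, and its spread was moderated with 62.1 prior degrees of freedom taken from all genes. The SE and p-values of a gene thus rest mostly on the spread shared by all genes. A gene was called at an adjusted p under 0.05 and an absolute log2 fold change of at least 1. The script was tested on simulated data. CPM used the scaled library sizes, and length scaling used summed exon lengths of TAIR10.1, whose RefSeq sequence was also read for the stretches shown. Alternatives were RLE factors, no low-count filter, edgeR's quasi-likelihood test, DESeq2 1.42.0, only the groups compared, a replicate block and leaving out each library.

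The members and lists were chosen with earlier results of these data known. Named genes were the 9, other listed genes that were called or had the smallest adjusted p of their role in a comparison, and the 3 genes nearest in pattern to each called member. Listed genes outside that rule were named after their values were seen, for completeness of their role.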

Additional observations from a re-analysis of the deposited data

Results flagged for a closer look

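For 7 of the 9 genes the effect in fio1-2 differed from the effect in fio1-1 by a direct test of the 2 mutants (limma-voom, adjusted over all tested genes). The difference, fio1-2 minus fio1-1 on the log2 scale, was 1.71 for VSP1, 0.92 for VSP2, 0.86 for AOC1, 0.77 for LOX2, 0.49 for AOS, 0.41 for OPR3 and 0.37 for JAZ1. LOX2 is the one of them that rose in fio1-2 and fell in fio1-1 against Col-0. Past the same threshold, 9.31% of all tested genes were higher and 8.76% lower in fio1-2. OPR3 and JAZ1 no longer passed with DESeq2. Over the fits without 1 library, AOC1 ran from 0.54 to 1.12, OPR3 from 0.31 to 0.52 and JAZ1 from 0.25 to 0.48. With 2 libraries per genotype, no group was large enough to look for a single outlying library.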

How the results depend on the processing

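Against Col-0, the 2 calls among the 9 genes in each mutant held in all 12 alternative fits, and the number past the adjusted p threshold was 5 throughout in fio1-1 and between 5 and 6 in fio1-2. Between fio1-2 and fio1-1 the results moved more. With DESeq2 the number of all genes called was 368, beside 570, and 9 of the other jasmonate genes passed, beside 17. In this comparison the counts of other jasmonate genes, here and below, include genes that passed the low-count filter only through fio1-2. Those genes had to differ, so these counts are no measure of how firm the result is. Among the 42 that passed the filter without fio1-2, 12 were higher and 2 lower in the main fit. Leaving out single libraries gave between 1 and 2 calls among the 9, between 4 and 7 past the threshold (4 without fio1-2 replicate 2), and between 10 and 18 of the other jasmonate genes (10 without fio1-1 replicate 1). Values that turned sign were not past the threshold, and each is given by its range over the fits without 1 library. Against Col-0 in fio1-1, VSP1 ran from -0.21 (without Col-0 replicate 1) to 1.53, AOC3 from -0.038 (without fio1-1 replicate 2) to 0.70, NATA1 from -0.0010 (without fio1-1 replicate 2) to 1.58, CYP94B1 from -0.41 to 0.077 (without Col-0 replicate 2) and PDF1.2A from -1.69 to 0.10 (without Col-0 replicate 2). In fio1-2, JAZ10 ran from -0.52 to 0.17 (without fio1-2 replicate 1) and was at 0.020 without Col-0 replicate 2. The cause was not tested. Scaling choices shifted the median of all genes by under 0.1 on the log2 scale.

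No pairing by replicate number was seen over all genes: the deviations of same-numbered libraries correlated at 0.00134, -0.00456 and -0.0239. Such a correlation cannot exclude a batch shared by same-numbered libraries that touches only some genes. With the replicate number as a block, 1217, 1025 and 545 genes were called in fio1-2 against Col-0, fio1-1 against Col-0 and fio1-2 against fio1-1, and 5, 5 and 7 of the 9 passed the threshold, as without it. With 2 libraries per genotype, JAZ10, VSP1 and the rarest response genes rest on few counts, and small differences in them could not be seen.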
